A study of Mus musculus with 18 samples.

Results

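KAP1 (also TRIM28) is a corepressor that KRAB zinc finger proteins (KZFPs) bring to the DNA sequences they recognize. In its best known role it binds SETDB1, a histone methyltransferase that places H3K9me3, a mark of silenced chromatin, and many of the sequences handled in this way derive from transposable elements. KAP1 is also found at active promoters. H3K27ac marks active promoters and enhancers. The peaks described here are the KAP1 peaks of Hepa 1.6 cells that lay away from transcript starts and were absent from the SETDB1 list, so that they could include sites of KAP1 binding outside of the silencing pathway.

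Of the 13366 KAP1 peaks of Hepa 1.6 cells, 13143 were on autosomes, and 6545 of these were distal KAP1 peaks without SETDB1. Membership required that the coordinates of the peak were absent from the SETDB1 list and that the peak lay more than 1 kb from every transcript start of the mm9 GENCODE annotation. The other autosomal KAP1 peaks were 2346 distal peaks in the SETDB1 list, 3755 peaks within 1 kb of a start and absent from the list, and 497 within 1 kb of a start and in the list. All 2957 entries of the SETDB1 list had the coordinates, name and score of a KAP1 peak. Whether SETDB1 peaks were called on their own before this list was made is not given in the sources used here, and so a peak absent from it is a KAP1 peak at which no SETDB1 was listed, and SETDB1 under the authors' threshold cannot be told apart from none.

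The data were 6 ChIP-seq peak lists, each deposited for 1 library. KAP1 (rabbit polyclonal antibody S23470) and SETDB1 were measured in Hepa 1-6 cells, a WT liver hepatoma line from the BW7756 tumour of a C57L mouse. H3K27ac (Abcam ab4729) and H3K9me3 (Diagenode C15410056) were measured in C57BL/6 (C57BL/6J in the methods) mouse embryonic fibroblasts (MEFs) that were WT, with loxP sites on both copies of Kap1 (Kap1 loxP/loxP), or Kap1 KO. The methods describe the MEFs kept for RNA-seq as a single stably growing Kap1 KO clone and its WT counterpart, and do not say whether ChIP-seq used the same clone. KAP1 binding and histone marks thus come from different cell types and strains, and KAP1 binding in MEFs was not analysed here. With 1 library per condition no difference between genotypes has a replicate check. The 95% confidence intervals (CI; exact Clopper-Pearson for shares, Newcombe for differences) cover counting error within these libraries only, and no p-values were computed. The score of a peak is the value deposited with it, −10 times the log10 of the p-value of the peak caller. The KAP1 list started at a score of 80, the MEF lists at 50.

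Sequences at the distal peaks without SETDB1 are given first. Each of the following is the 200 bases around the middle of the member with the highest KAP1 score in 1 class of MEF marks, for 5 classes, from the plus strand of mm9. Capitals mark the AP-1 letters TGANTCA, the ZFP57 hexamer TGCCGC or the short form of the tRNA B box, GTTCGANTC, on either strand. ZFP57 is a KZFP known for its role at imprinted loci. The tRNA A and B boxes are the promoter elements inside tRNA genes that TFIIIC binds.
H3K27ac in WT and Kap1 KO, chr1:34491581-34491780: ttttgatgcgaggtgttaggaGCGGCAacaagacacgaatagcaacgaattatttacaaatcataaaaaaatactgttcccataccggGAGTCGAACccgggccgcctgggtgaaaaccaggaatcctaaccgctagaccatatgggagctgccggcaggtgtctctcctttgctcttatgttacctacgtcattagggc
H3K27ac in Kap1 KO only, chr13:22028853-22029052: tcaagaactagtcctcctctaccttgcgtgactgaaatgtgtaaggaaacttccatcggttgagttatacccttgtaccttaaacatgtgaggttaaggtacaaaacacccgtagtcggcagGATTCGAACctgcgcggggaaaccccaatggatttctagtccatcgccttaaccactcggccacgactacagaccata
H3K27ac in WT only, chr13:21371527-21371726: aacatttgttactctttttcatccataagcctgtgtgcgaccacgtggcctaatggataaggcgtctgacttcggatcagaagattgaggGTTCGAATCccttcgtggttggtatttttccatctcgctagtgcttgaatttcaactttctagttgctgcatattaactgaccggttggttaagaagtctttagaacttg
H3K9me3 in WT, chr4:70956614-70956813: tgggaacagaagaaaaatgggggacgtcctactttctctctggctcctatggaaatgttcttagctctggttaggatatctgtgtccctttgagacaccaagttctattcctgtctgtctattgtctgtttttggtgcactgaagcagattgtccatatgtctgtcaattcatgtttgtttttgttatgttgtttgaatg
H3K9me3 in Kap1 KO, chr5:146317084-146317283: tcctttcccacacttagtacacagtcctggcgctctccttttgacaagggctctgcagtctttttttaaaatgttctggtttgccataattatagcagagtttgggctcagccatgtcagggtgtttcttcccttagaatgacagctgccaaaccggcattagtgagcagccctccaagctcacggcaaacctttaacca

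The first 3 of these windows hold the B box letters, and the first also the ZFP57 hexamer, whereas the last 2 hold none of the marked letters. The first 3 come from members with a KAP1 score of 3100 and do not stand for their classes. In the middle 300 bases, B box letters were found at 36 of 1155, 3 of 476 and 2 of 128 members of these classes, in the order given. They were found at 2 of 1128 members with WT H3K9me3. The window of the top H3K9me3 member belongs to a peak that shared a 30-base word with many others, 73 KAP1 peaks in all. Windows of 4 members with a complete tRNA-type sequence (an A box followed by a B box) are shown next, on the strand on which the boxes read, with the B box in capitals. They all come from members with a KAP1 score of 3100, the highest among the members.
tRNA type 1, chr1:34491648-34491731, minus strand: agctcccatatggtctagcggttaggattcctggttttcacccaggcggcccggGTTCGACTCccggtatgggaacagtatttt
tRNA type 2, chr1:172967151-172967234, minus strand: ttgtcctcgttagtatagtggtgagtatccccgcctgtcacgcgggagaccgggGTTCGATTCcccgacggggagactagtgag
tRNA type 3, chr1:172968742-172968836: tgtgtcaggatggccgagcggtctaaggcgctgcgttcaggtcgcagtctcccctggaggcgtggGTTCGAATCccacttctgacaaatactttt
tRNA type 4, chr7:36019780-36019865, minus strand: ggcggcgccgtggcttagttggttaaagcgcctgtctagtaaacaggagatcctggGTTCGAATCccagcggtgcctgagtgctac

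Stretches of 61 bases around an AP-1 match, in capitals, come from members that shared no word with 9 or more other KAP1 peaks. The match allows any base at the N of TGANTCA, and the shares of AP-1 letters given below were not split by that base. The stretches of the Kap1 KO only member and of the member with no MEF peak hold TGAATCA. AP-1 is the family of FOS and JUN dimers that binds many enhancers.
AP-1, H3K27ac in both, chr3:96232077-96232137: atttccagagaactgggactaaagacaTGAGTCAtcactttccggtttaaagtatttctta
AP-1, H3K27ac in Kap1 KO only, chr4:29114390-29114450: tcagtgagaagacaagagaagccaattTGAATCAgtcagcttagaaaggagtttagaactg
AP-1, H3K27ac in WT only, chr6:134213332-134213392: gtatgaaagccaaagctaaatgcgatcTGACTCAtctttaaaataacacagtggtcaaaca
AP-1, no MEF peak, chr10:38860922-38860982: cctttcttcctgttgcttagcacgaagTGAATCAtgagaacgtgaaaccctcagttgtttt

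Last come 13 of 25 words of 30 bases that each lay in the middle 300 bases of 20 or more members, numbered by how many held them. These 13 were chosen after their values were seen, as words that differ in their marks or in how often SETDB1-listed peaks held them. Letters of the ZFP57 hexamer are in capitals. They stand for repeated sequence, and the repeats were not annotated here.
word 1: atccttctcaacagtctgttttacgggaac
word 2: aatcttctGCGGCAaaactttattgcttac
word 3: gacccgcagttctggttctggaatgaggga
word 4: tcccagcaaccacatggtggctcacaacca
word 6: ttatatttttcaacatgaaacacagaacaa
word 7: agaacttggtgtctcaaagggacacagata
word 8: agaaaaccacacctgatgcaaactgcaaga
word 12: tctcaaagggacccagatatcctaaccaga
word 13: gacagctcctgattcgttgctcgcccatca
word 14: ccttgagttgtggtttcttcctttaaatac
word 15: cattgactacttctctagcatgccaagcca
word 19: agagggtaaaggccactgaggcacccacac
word 23: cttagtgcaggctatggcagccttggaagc

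The distal peaks without SETDB1 were mostly intergenic and of low score. The middle of 4419 of 6545 (67.5%) lay outside annotated genes, that of 1874 (28.6%) in an intron and that of 252 (3.85%) in an exon, and 32.5% were thus intragenic (95% CI 31.3 to 33.6). Among distal peaks in the SETDB1 list 28.2% were intragenic, a difference of 4.31 percentage points (95% CI 2.14 to 6.43). Members lay between 1002 and 964558 bp from the nearest transcript start, with a median of 18299 bp. Their median KAP1 score was 138, against 172 at distal SETDB1-listed peaks, and their median width 675 bp, against 757.5 bp. Their median GC content (46.3%) was close to that of distal SETDB1-listed peaks (47.3%), but the median ratio of observed to expected CpG was 0.251, against 0.602. The nearest SETDB1-listed peak was a median of 228233 bp away, and within 10 kb at 549 members (8.39%).

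H3K27ac in MEFs was found at more distal peaks without SETDB1 than at distal SETDB1-listed peaks. In WT MEFs 1283 members (19.6%, 95% CI 18.6 to 20.6) overlapped an H3K27ac peak by at least 1 bp, and in Kap1 KO MEFs 1631 (24.9%, 95% CI 23.88 to 25.99) did. At distal SETDB1-listed peaks these shares were 5.63% and 8.23%, so the members were higher by 13.98 points in WT (95% CI 12.6 to 15.3) and by 16.7 points in Kap1 KO (95% CI 15.1 to 18.2). Over all autosomal KAP1 peaks 37.4% overlapped H3K27ac in WT and 40.2% in Kap1 KO. Members were thus below the whole list, in which the peaks at starts and without SETDB1 reached 86.4% in WT. A distance of 1 kb from a start cuts through a gradient. Peaks without SETDB1 that lay 804 to 1000 bp from a start, just outside the rule, overlapped WT H3K27ac at 58 of 105 places, and members at 1002 to 1200 bp at 39 of 90.

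H3K9me3 in WT MEFs covered 1128 members (17.2%, 95% CI 16.3 to 18.2), against 20.7% of distal SETDB1-listed peaks and 14.0% of all autosomal KAP1 peaks. Members were lower than distal SETDB1-listed peaks (difference −3.44 points, 95% CI −5.35 to −1.59), a small gap beside that for H3K27ac. With MEF peaks of score 80 or more its interval spanned 0 (−1.24 points, 95% CI −2.88 to 0.318), and with MEF peaks within 1 kb it was −7.28 points. The absence of SETDB1 from the list in Hepa 1.6 cells thus did not go with an absence of H3K9me3 in MEFs. In Kap1 KO MEFs 24 members (0.367%) overlapped an H3K9me3 peak, against 0.563% of all autosomal KAP1 peaks. Of these 24, 16 also had H3K9me3 in WT. The Kap1 KO list holds 4319 H3K9me3 peaks and the WT list 14425, and 96.9% of the autosomal WT peaks overlapped none of the Kap1 KO peaks.

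**Figure D1:**
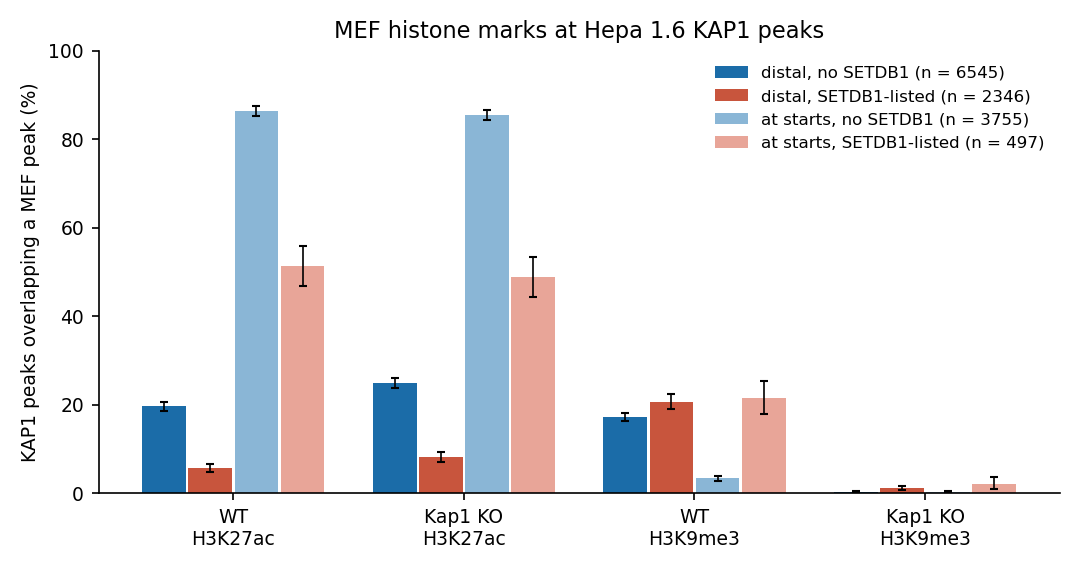
Share of autosomal KAP1 peaks of Hepa 1.6 cells (vertical axis, percent) that overlap a peak of each MEF list (horizontal axis), for 4 classes of KAP1 peak with their numbers. Bars are shares and whiskers 95% exact intervals. Distal peaks without SETDB1 reach 19.6% for WT H3K27ac against 5.63% at distal SETDB1-listed peaks, while the 2 classes lie close for WT H3K9me3 (17.2% and 20.7%).

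The 2 marks hardly met. Only 17 members carried both in WT MEFs. Among the 1128 members with WT H3K9me3, 1.51% overlapped WT H3K27ac, against 23.4% of the 5417 without, a difference of −21.9 points (95% CI −23.1 to −20.4). The largest group, 3760 members (57.4%, 95% CI 56.2 to 58.7), overlapped no peak of any of the 4 MEF lists. The remaining members comprised 1155 with H3K27ac in both genotypes, 476 with H3K27ac in Kap1 KO only, 128 with H3K27ac in WT only, 1003 with H3K9me3 in WT only and no H3K27ac, 15 with H3K9me3 in both genotypes and 8 with it in Kap1 KO only.

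More members had H3K27ac in Kap1 KO only than in WT only. The Kap1 KO only share was 7.27% (476 members, 95% CI 6.66 to 7.93) and the WT only share 1.96% (128 members, 95% CI 1.63 to 2.32), against 4.63% and 1.85% of all autosomal KAP1 peaks. Distal SETDB1-listed peaks leaned the same way, with 3.67% in Kap1 KO only (86 peaks) and 1.07% in WT only (25 peaks), so the lean was not particular to members. The whole H3K27ac lists did not lean this way: 22.5% of autosomal Kap1 KO H3K27ac peaks overlapped no WT peak, and 22.97% of WT peaks overlapped no Kap1 KO peak. Of the 476 Kap1 KO only members 93 carried H3K9me3 in WT, against 6 of the 128 WT only members and 11 of the 1155 with H3K27ac in both. The Kap1 KO only share was 8.24% with WT H3K9me3 and 7.07% without, a difference of 1.17 points whose interval spans 0 (95% CI −0.457 to 3.04). A Kap1 KO only member has no WT H3K27ac by definition. WT H3K27ac was at 1.51% of members with WT H3K9me3 and at 23.4% of those without, so the 2 shares are not of like groups. Of the members with WT H3K27ac, 6 of the 17 with WT H3K9me3 and 122 of the 1266 without were WT only. Peaks of H3K27ac found in 1 genotype had lower scores than shared ones. At members with H3K27ac in both, H3K27ac peaks had a median score of 2088 (WT) and 1923 (Kap1 KO), against 293 for Kap1 KO only and 246 for WT only, and 408 of 476 and 114 of 128 of these scored 80 or more.

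The gap in H3K27ac held at like KAP1 scores, whereas that in H3K9me3 varied. In the lowest quartile of KAP1 scores (80 to 105) WT H3K27ac covered 20.9% of members and 1.46% of distal SETDB1-listed peaks, and in the highest (259 and more) 18.7% and 11.6%. The highest quartile includes the 77 members at a score of 3100, of which 71 had WT H3K27ac. At scores below 3100, a limit chosen after seeing the data, its shares were 14.2% of members and 9.67% of SETDB1-listed peaks, a difference of 4.53 points (95% CI 1.60 to 7.31). WT H3K9me3 rose with the score in both, from 12.2% to 26.9% of members and from 8.73% to 30.9% of SETDB1-listed peaks. In the lowest quartile members were higher for H3K9me3 by 3.42 points (95% CI 0.238 to 6.12), and in the highest they were lower (difference −4.09 points, 95% CI −8.08 to −0.160). At scores below 3100 the interval of the latter difference spanned 0 (−1.44 points, 95% CI −5.56 to 2.60), as it did in the 2 quartiles between.

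**Figure D2:**
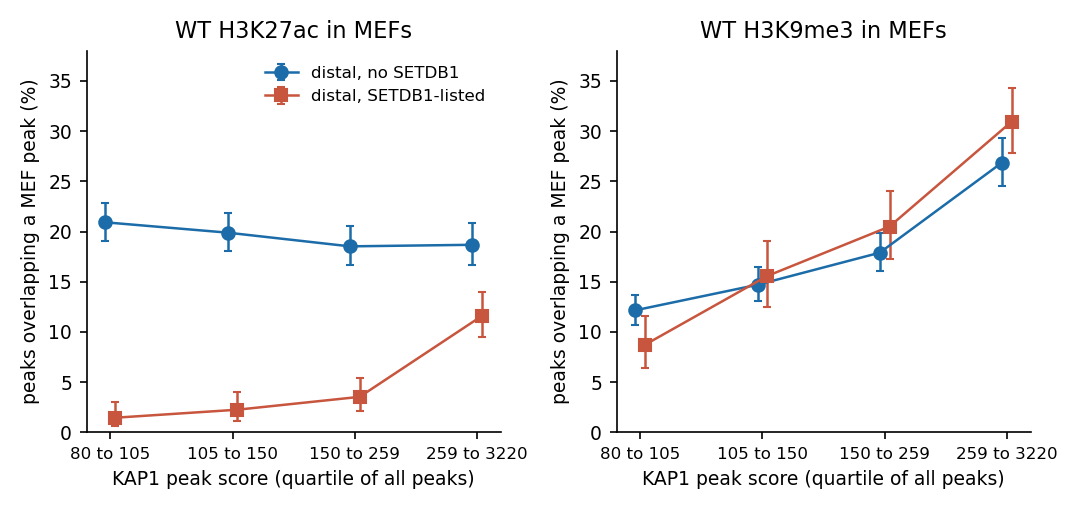
Share of distal KAP1 peaks overlapping a WT MEF peak (vertical axes, percent) in quartiles of the KAP1 score (horizontal axes, range of scores), for members (circles) and SETDB1-listed peaks (squares), with 95% exact intervals. For H3K27ac (left) the members lie between 18.5% and 20.9%, above the SETDB1-listed peaks in each quartile, and the highest quartile includes the 77 members at 3100. For H3K9me3 (right) both rise, and their order changes between the lowest and the highest quartile.

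The place of a member went with its mark. WT H3K27ac covered 31.2% of the 1149 members within 5 kb of a start (1002 to 4996 bp), 19.2% of the 2759 at 10006 to 49971 bp and 7.76% of the 825 at 100151 bp or more. WT H3K9me3 changed less, with 13.4%, 18.7% and 15.5%. Intronic members had H3K27ac in WT more often than those outside genes (25.3% and 17.4%) and H3K9me3 less often (11.8% and 19.3%). The median distance to a start was 11146 bp for members with H3K27ac in both genotypes, 16891 bp for Kap1 KO only, 16899 bp for WT only and 21377 bp for those without any MEF peak.

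The marks of members differed with the sequence that they shared with other KAP1 peaks. A peak was counted as sharing sequence when its middle 300 bases held a 30-base word present in 10 or more KAP1 peaks. This was the case of 2217 members (33.9%), against 73.4% of distal SETDB1-listed peaks, a difference of −39.5 points (95% CI −41.6 to −37.3), and of 4.45% of peaks at starts without SETDB1. Members that shared a word had WT H3K27ac at 3.83% and WT H3K9me3 at 24.99%, and the 4328 others at 27.7% and 13.3%. The differences were −23.8 points for H3K27ac (95% CI −25.4 to −22.3) and 11.7 points for H3K9me3 (95% CI 9.68 to 13.8). The 4328 others were not all of unique sequence. Of them 1146 shared a word with fewer KAP1 peaks, and all 58 members with a tRNA-type sequence were among the 4328. The 3182 members that shared no word with any KAP1 peak had WT H3K27ac at 32.4% and WT H3K9me3 at 9.21%. Within each kind of sequence the comparison with SETDB1-listed peaks changed. Among peaks without a shared word, members were below SETDB1-listed peaks in H3K9me3 (difference −12.5 points, 95% CI −16.2 to −9.06) and above them in WT H3K27ac by 10.1 points (95% CI 6.64 to 13.2). Among peaks with a shared word, members were above in H3K9me3 by 6.16 points (95% CI 3.56 to 8.72) and in WT H3K27ac by 2.56 points (3.83% and 1.28%, 95% CI 1.58 to 3.54). The pooled H3K9me3 difference of −3.44 points therefore adds up strata of opposite sign, and the pooled H3K27ac difference of 13.98 points is larger than that in either stratum.

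H3K27ac found in Kap1 KO only also divided by sequence. Among members with a shared word 132 had H3K27ac in Kap1 KO only and 12 in WT only, and among those without 344 and 116. Compared with distal SETDB1-listed peaks, the Kap1 KO only share was higher in members with a shared word (5.95% and 1.80%, difference 4.15 points, 95% CI 2.98 to 5.34). Without a shared word it was 7.95% and 8.80%, and the interval of the difference spanned 0 (−0.852 points, 95% CI −3.45 to 1.30).

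Some of the listed words were common to members and SETDB1-listed peaks, others were nearly restricted to members. Listing required 20 or more members and set no number of SETDB1-listed peaks. A word restricted to SETDB1-listed peaks could therefore not appear, and the list leans towards members by its selection. Word 1 was held by 141 members and 121 distal SETDB1-listed peaks, word 2 by 116 and 441, and word 3 by 107 and 603. No member with any of these 3 words overlapped H3K27ac in either genotype, while 28, 24 and 11 of them overlapped WT H3K9me3. Word 2 contains the ZFP57 hexamer. Word 4 is very frequent in the genome, with 31265 exact copies on autosomes, and was held by 88 members, 17 peaks at starts and 1 distal SETDB1-listed peak. H3K27ac covered 18 of these 88 members in WT and 21 in Kap1 KO, and H3K9me3 2. Word 16, with 34441 copies, likewise had H3K27ac in WT at 7 of its 30 members, and each of the other 23 words at 1 member or none.

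Words 6, 7, 8, 12, 13, 14, 15, 20, 21, 23, 24 and 25 were held by few KAP1 peaks other than members. Word 6 occurs 140 times on autosomes and was held by 70 KAP1 peaks, 65 of them members and 3 of them distal and SETDB1-listed. Word 7 occurs 96 times and was held by 73 KAP1 peaks, 64 of them members and 8 of them distal and SETDB1-listed. The members with word 7 had a median KAP1 score of 664.5, and those with word 6 of 385, well above the median of 138 of all members. None of the members with word 6 or word 7 overlapped H3K27ac in WT, while 8 of 65 and 16 of 64 did in Kap1 KO, and 19 and 19 overlapped WT H3K9me3. The same arrangement was seen for word 12 (0 of 40 members with WT H3K27ac, 7 with Kap1 KO H3K27ac and 20 with WT H3K9me3), word 14 (0, 7 and 6 of 35) and word 23 (0, 9 and 15 of 23). All 23 KAP1 peaks with word 23 were members. Word 8 was held by 53 members and no distal SETDB1-listed peak, with WT H3K9me3 at 21 and H3K27ac at 3 in Kap1 KO and 0 in WT. Words 13, 15, 20, 21, 24 and 25 had H3K27ac in Kap1 KO at 1, 1, 1, 1, 0 and 2 of their 37, 31, 26, 24, 22 and 22 members. High shares of WT H3K9me3 were those of word 19 (21 of 26 members) and word 15 (19 of 31), each with 1 member that had H3K27ac in Kap1 KO. Different words can lie in the same peak or in copies of the same element, so these counts are not independent of each other.

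**Figure D3:**
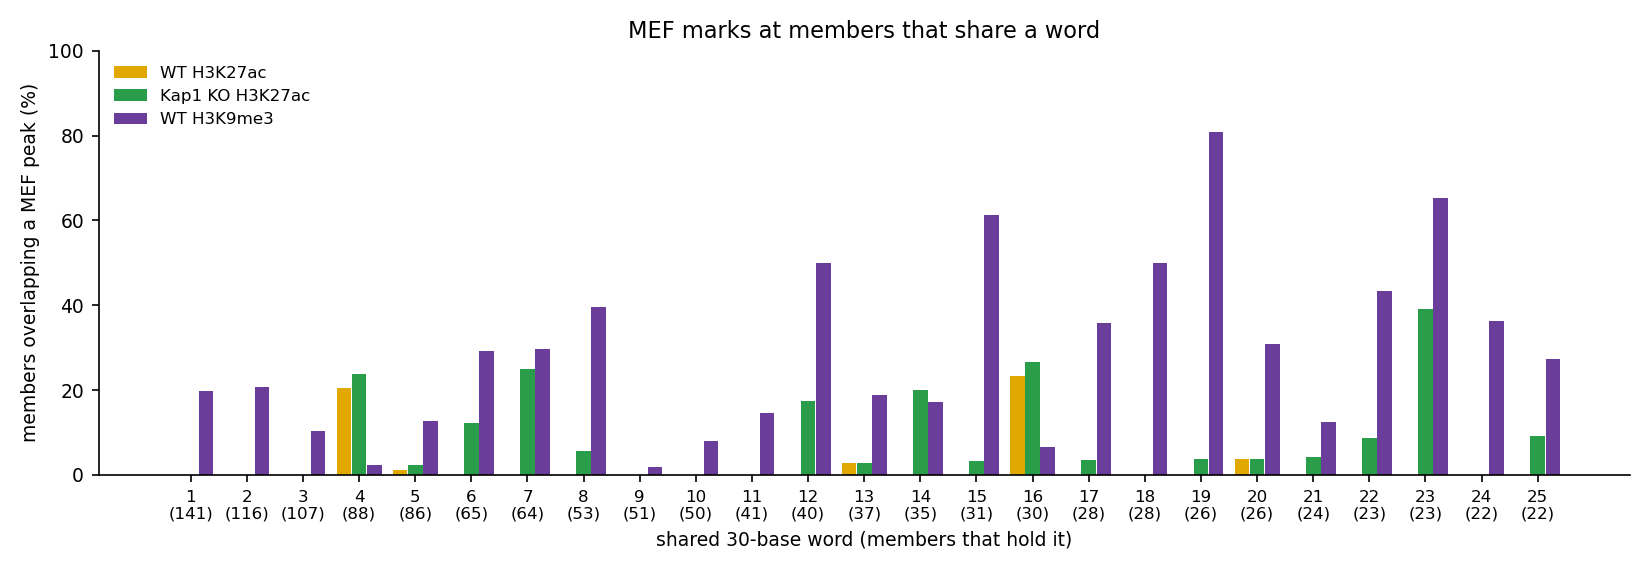
Share of members (vertical axis, percent) that overlap WT H3K27ac, Kap1 KO H3K27ac or WT H3K9me3, for the 25 shared words (horizontal axis, word number with the number of members in parentheses). Bars are shares in single libraries, without error bars. Words 6, 7, 8, 12, 14, 15, 17, 19, 21, 22, 23 and 25 have a bar for Kap1 KO H3K27ac and none for WT H3K27ac, whereas words 4 and 16 have both at over 20% of members.

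Motif letters separated members from SETDB1-listed peaks, and members from each other. The AP-1 letters TGANTCA were found on either strand in the middle 300 bases of 1460 members (22.3%, 95% CI 21.3 to 23.3), against 3.84% of distal SETDB1-listed peaks, 6.58% of peaks at starts without SETDB1 and 8.87% of all autosomal windows of 300 bases. The difference between members and distal SETDB1-listed peaks was 18.5 points (95% CI 17.2 to 19.7), and it was 18.5 points also among peaks without a shared word (95% CI 15.7 to 21.0). AP-1 letters were found at 39.4% of members with H3K27ac in both genotypes, 35.7% of those with H3K27ac in Kap1 KO only and 45.3% of those in WT only, but at 11.5% with WT H3K9me3 and 17.6% without any MEF peak. Members with the letters had H3K27ac in WT at 35.1% and those without at 15.1%, a difference of 20.0 points (95% CI 17.4 to 22.7). Among members without a shared word this difference was 18.6 points (95% CI 15.5 to 21.8).

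The ZFP57 hexamer TGCCGC showed the opposite arrangement for SETDB1 listing and for H3K27ac, but not for H3K9me3. It was found at 1470 members (22.5%), against 56.1% of distal SETDB1-listed peaks and 1.86% of all autosomal windows. Without a shared word the shares were 20.0% and 40.5%. Members with the hexamer overlapped WT H3K27ac at 7.69%, against 23.1% of those without, a difference of −15.4 points (95% CI −17.1 to −13.5). They also had less WT H3K9me3 (12.7% and 18.5%, difference −5.82 points, 95% CI −7.76 to −3.74). Members with AP-1 letters had less of it too (8.90%, against 19.6% without). Of members with the hexamer 41.2% shared a word, and their contrasts in marks were not split by it. The hexamer was found at 30.1% of members without any MEF peak and at 8.14% of those with H3K27ac in both genotypes. A match of these letters is a description and does not identify a bound site.

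The other motifs differed less or stayed rare. SP1 letters (GGGCGG), known from GC-rich promoters, were found at 8.37% of members and 8.74% of distal SETDB1-listed peaks, against 60.9% of peaks at starts without SETDB1 and 2.94% of all windows. FOXA letters (TGTTTAC), recognized by pioneer factors of liver, were found at 7.56% of members, 8.91% of distal SETDB1-listed peaks and 4.48% of all windows. Among peaks without a shared word the order of FOXA turned, with 6.84% of members and 3.52% of SETDB1-listed peaks (difference 3.32 points, 95% CI 1.43 to 4.74), SP1 letters were lower at members (difference −4.75 points, 95% CI −7.93 to −1.96), and the interval for YY1 spanned 0 (−0.984 points, 95% CI −2.69 to 0.198). C/EBP letters (TTGCNNAA) were found at 12.4% and 12.0%, against 13.7% of all windows. HNF4A letters (CAAAGTCCA), of a nuclear receptor of hepatocytes, were at 0.413% of members and 0.390% of all windows. The E-box CACGTG was at 5.19% of members, 2.13% of distal SETDB1-listed peaks, 12.9% of peaks at starts without SETDB1 and 2.99% of all windows. For ETS letters (CCGGAAG) these shares were 2.03%, 0.682%, 21.0% and 0.867%. Among peaks without a shared word, both differences from SETDB1-listed peaks had intervals that spanned 0. They were 0.251 points for the E-box (95% CI −2.01 to 2.04) and 0.236 points for ETS (95% CI −1.39 to 1.35). YY1 letters (AAGATGGC) were at 3.68% of members, against 7.76% of distal SETDB1-listed peaks. The letters of a zinc finger linker (ACTGGAGAG) were at 1.25% and 1.53%. The core of the CTCF motif was at 0.932% of members, 0.256% of distal SETDB1-listed peaks and 0.147% of all windows. All windows include sequence of every base composition, which differs from that of the peaks.

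**Figure D4:**
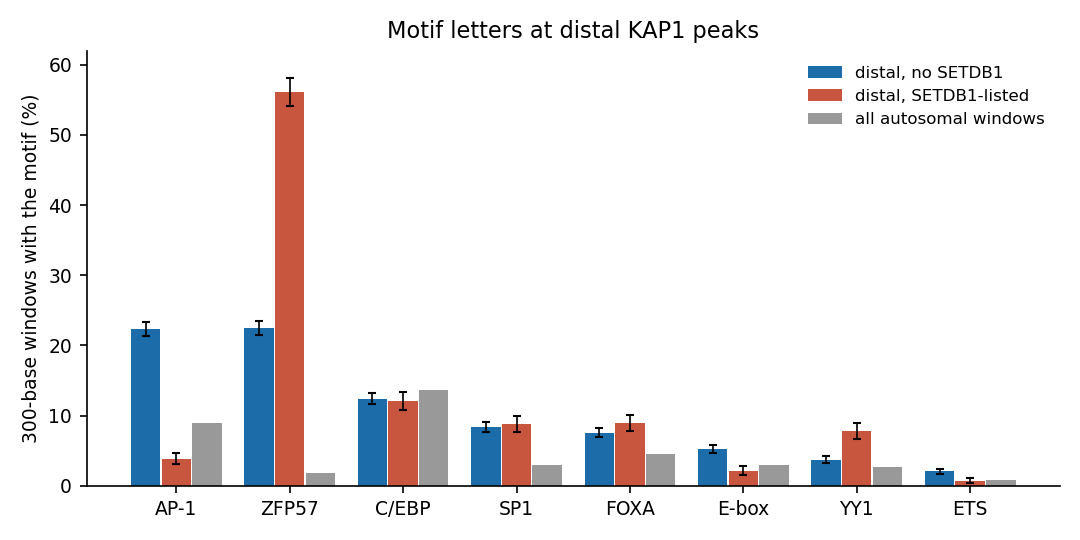
Share of 300-base windows holding each motif on either strand (vertical axis, percent) for 8 motifs (horizontal axis), at members, at distal SETDB1-listed peaks (whiskers, 95% exact intervals) and in all 7978600 autosomal windows. AP-1 is at 22.3% of members and 3.84% of SETDB1-listed peaks, and the ZFP57 hexamer at 22.5% and 56.1%.

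Many of the strongest members held a tRNA-type sequence or shared their neighbouring genes with tRNA genes. The score reached its highest value among members, 3100, at 77 of them. Of these 72 lay outside annotated genes, 71 overlapped H3K27ac in WT and 71 in Kap1 KO (70 in both), and none overlapped H3K9me3 in WT. A tRNA-type sequence, found by its A and B boxes after the highest scores had been seen, lay in 36 of the 77 and in 58 of all 6545 members. By RefSeq (GRCm38), which places 391 tRNA genes on autosomes, 69 of the 77 lay between the same neighbouring protein-coding genes as at least 1 tRNA gene, against 18 of the 79 members with scores from 1000 to below 3100 and 256 of all members. Sharing neighbours across builds is not a distance. The trait was not particular to members. At scores of 3100 or more, a tRNA-type sequence lay in 20 of 47 peaks at starts without SETDB1 and 9 of 46 distal SETDB1-listed peaks. Of these 47 and 46 peaks, 32 and 18 shared neighbours with a tRNA gene. Among all members 0.886% held such a sequence, against 0.554% of distal SETDB1-listed peaks. The interval of this difference covered both signs (0.332 points, CI −0.108 to 0.677). Of the 486 tRNA-type sequences of the autosomes, 70 lay in members, 24 in distal SETDB1-listed peaks, 24 in peaks at starts without SETDB1 and 362 in no KAP1 peak. The 58 members with such a sequence had H3K27ac in WT at 45, in Kap1 KO at 46, and H3K9me3 in WT at 1. Chromosome 13 held 30 of them. Without the 77 members at 3100 the shares over all members were 18.7% for WT H3K27ac and 17.4% for WT H3K9me3.

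Among the 10 members of highest score, taken in genome order since all shared the ceiling of 3100, 8 had H3K27ac in both genotypes. They included a peak 8159 bp upstream of Mdm4, an inhibitor of p53, with H3K27ac scores of 3100 in WT and 1403 in Kap1 KO, and 3 peaks close together beside Fcgr4 and Fcgr3, genes of Fc receptors, whose H3K27ac scores ranged from 692.6 to 2812 in WT and from 952.2 to 2471 in Kap1 KO. A peak 5956 bp upstream of Shf had an H3K27ac score of 3100 in both. The other 2 had no MEF peak, among them a peak at 130257 bp from the start of Itga4, an integrin gene, which shared a word with other KAP1 peaks, 106 in all. Each of the 8 lay between the same neighbouring protein-coding genes as at least 1 tRNA gene, and the other 2 did not.

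Of the 5 highest-scoring members with H3K27ac in Kap1 KO only, the top 2 had KAP1 scores of 3100 and 3001. They lay 7563 and 9209 bp upstream of Zfp184, which encodes a zinc finger protein, on chromosome 13. They overlapped H3K27ac with a score of 260.1 each. Both held a tRNA-type sequence, and 23 tRNA genes lay between the same neighbouring protein-coding genes. The third and the fifth lay 13302 bp upstream of Klrb1c (KAP1 score 1866, H3K27ac score 337.6) and in an exon of Gm17395 near Klrb1b (1182 and 3100), among NK cell receptor genes of chromosome 6. The fourth lay on chromosome 6, 148508 bp upstream of A530053G22Rik, the nearest start (KAP1 score 1648), with H3K27ac in Kap1 KO at 181.6 and H3K9me3 in WT at 55.81. High-scoring members with H3K27ac in WT only included 1 in an intron of Etv6, an ETS family repressor (KAP1 score 687, H3K27ac score 622.5). Others lay in an exon of the homeobox gene Dbx1 (401 and 88.40), 7905 bp upstream of Ang, encoding angiogenin, and 12452 bp downstream of the start of Gpx5. The members near Ang and Gpx5 each held a tRNA-type sequence.

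The top member with WT H3K9me3 lay on chromosome 4, 461843 bp from the nearest protein-coding start (KAP1 score 1740, H3K9me3 score 66.50). The next 4 lay in an intron of C1s, a complement protease (1723 and 463.4), upstream of A530053G22Rik (the member also found with Kap1 KO only H3K27ac), 19931 bp upstream of Cyp3a57, of the cytochrome P450 3a family of liver (1519 and 97.10), and 44827 bp upstream of Atp6v1g3 (1510 and 212.7). The top 5 members with H3K9me3 in Kap1 KO all had it in WT as well, with a higher score there. Near Cyp3a41b the WT peak scored 264.5 and the Kap1 KO peak 58.84, and near Lbx1, a homeobox gene, these values were 153.1 and 68.88.

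The genes with the most members in their body were mostly long. Gm20388, annotated over 4435 kb, held 20 members, of which 10 overlapped H3K27ac in WT and 10 in Kap1 KO. Fgfr2, a fibroblast growth factor receptor annotated here over 3009 kb, held 12, with H3K27ac at 4 in WT and 3 in Kap1 KO. C1s held 9 within 107 kb, with scores from 80 to 1723, none with H3K27ac in WT, 1 in Kap1 KO and 4 with H3K9me3 in WT. Arfip1 held 8, with no WT H3K27ac. Dlgap1, encoding a scaffold protein of synapses, held 6, of which 4 overlapped H3K27ac in WT and 4 in Kap1 KO. Nckap5 and Ksr2, a scaffold of RAS signalling, held 6 each, with AP-1 letters at 4 and 3 of them. Bri3, Myo5b and AF064781 held 5 each. In all, 1490 protein-coding genes held the middle of a member, and 1157 of them held 1.

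By gene list, a member lay within 10 kb of 3046 of 21418 autosomal protein-coding genes (14.2%). In the list of lipid metabolism 18 of 53 genes had 1, among them Mlxipl (KAP1 score 525) and Srebf1 (416), which encode regulators of lipid synthesis, and Gpam and Abcg1, and none of these 4 top members overlapped a MEF mark. Of the hepatocyte genes 11 of 62 (17.7%) had a member. They included Cebpa (305, no MEF mark), Igfbp1 (192, H3K9me3 in WT and H3K27ac in Kap1 KO), Asgr2 and Nr1h4, the bile acid receptor (120, H3K27ac in both). Of fibroblast and matrix genes 10 of 54 had a member. Members in introns of Cald1 (305) and Ddr2 (281), genes of actin binding and of a collagen receptor, had H3K9me3 in WT and H3K27ac in Kap1 KO, while Timp2 (323) had H3K9me3 in WT only.

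Of the p53 and cell cycle genes 10 of 36 had a member within 10 kb, led by Aurkb and Mdm4, both at 3100 and with H3K27ac in both genotypes. The Mdm4 member lay between the same neighbouring protein-coding genes as 2 tRNA genes. Trp53inp1 and Ccne2 shared a member (260) with H3K9me3 in WT, and Ccnd1 had 1 at 212 with H3K27ac in both. Imprinted genes had a member at 9 of 49, among them Commd1 and Zrsr1, which share their top member (274, H3K27ac in Kap1 KO), Sfmbt2, Calcr and Trappc9. Commd1 had 3 members within 10 kb and Zrsr1 2. For each of these genes, 1 of its members overlapped H3K27ac in WT and 2 in Kap1 KO. Of AP-1 and immediate early genes 6 of 38 had a member, among them Junb (239), Nr4a3 (169) and Myc (148), each with H3K27ac in both genotypes, and Zfp36 and Sgk1 without a MEF mark. In the list of the KAP1 silencing machinery 3 of 40 had a member, Chd3, Trim33 and Trim24, and of germline and two-cell genes 2 of 28, Tdrd9 (597, H3K9me3 in WT and H3K27ac in Kap1 KO) and Mov10l1. The shares of these lists lay between 7.14% and 34.0%. Gene length differs between lists, with medians from 5.12 to 36.4 kb, and its part was not tested.

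Zfp and Olfr genes, grouped by symbol after the results were seen, differed. A member lay within 10 kb of 89 of 353 Zfp genes (25.2%) and of 43 of 1106 Olfr genes (3.89%), the olfactory receptors, against 14.2% of all protein-coding genes. A distal SETDB1-listed peak lay as near to 10.2% and 1.81% of them, against 4.35% of all, so the contrast was not particular to members. The median gene length was 14.7 kb for Zfp and 0.961 kb for Olfr genes, and its part was not tested. The members of highest score near Zfp genes were those of Zfp184, Zfp213 and Zfp692, at 3100, and 2 of the members lay in exons of Zfp672 (1009) and Zfp324 (626) with no MEF mark. The Zfp184 member held a tRNA-type sequence.

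Members were unevenly spread over the autosomes. Chromosome 15 had 5.03 per Mb, chromosome 19 4.47 and chromosome 11 3.91, while chromosomes 9, 12, 14 and 16 had 1.05 to 1.23, and no other autosome was below 2.26. Peaks at starts without SETDB1 were also lower on these 4 chromosomes (0.239 to 0.487 per Mb, against 0.981 to 4.05 elsewhere). Distal SETDB1-listed peaks varied less, from 0.594 to 0.865 on the 4 chromosomes and from 0.751 to 1.30 on the others. The copy number of the chromosomes in Hepa 1.6 cells was not analysed here.

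The share of members with WT H3K9me3 ranged from 2.76% on chromosome 18 and 5.52% on chromosome 7 to 28.4% on chromosome 10 and 32.3% on chromosome 8. The WT H3K9me3 list itself was uneven in the same way, with 0.892 and 1.44 peaks per Mb on chromosomes 18 and 7 and 11.9 and 15.5 on chromosomes 10 and 8, and its part in the shares was not tested. On chromosome 4 Kap1 KO only and WT only members were near equal (14 and 13), whereas on the other autosomes Kap1 KO only members were the more numerous.

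**Figure D5:**
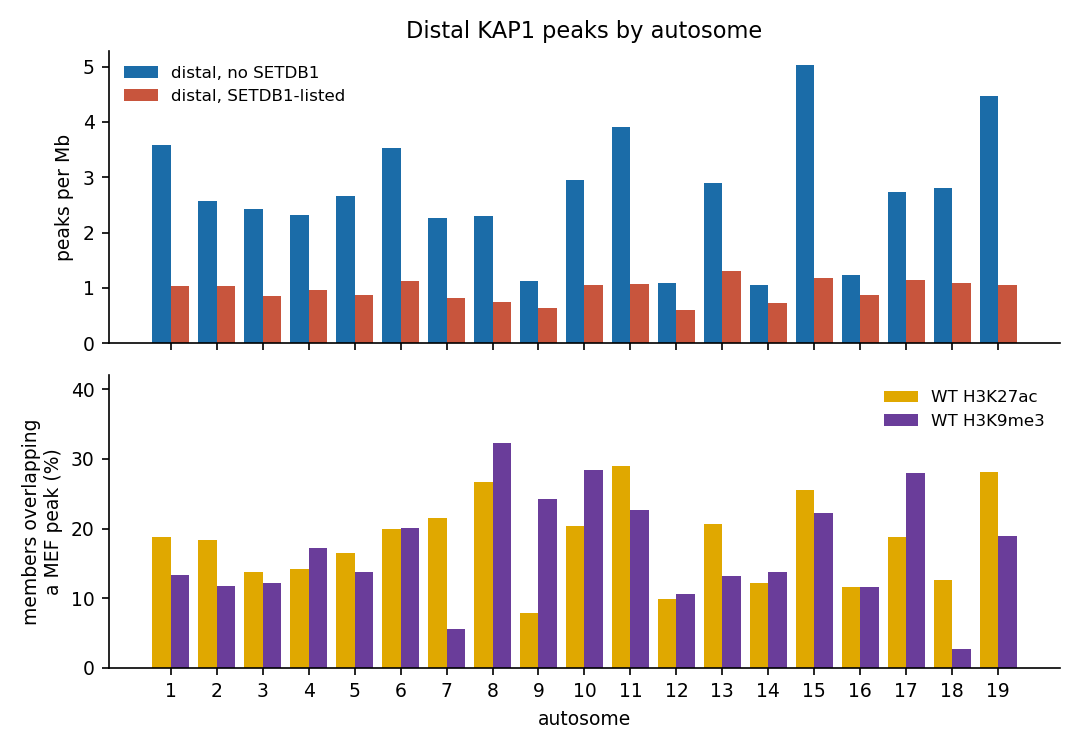
Distal KAP1 peaks per Mb (top) and share of members overlapping WT H3K27ac or WT H3K9me3 in MEFs (bottom, percent) for each of the 19 autosomes (horizontal axis). Bars are single values without error bars. Members range from 1.05 per Mb on chromosome 14 to 5.03 on chromosome 15, and WT H3K9me3 from 2.76% of members on chromosome 18 to 32.3% on chromosome 8.

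Clusters of members were visible at the scale of 1 Mb. Of 2482 windows of 1 Mb, 1838 held a member and 22 held 15 or more, with at most 24. That window, on chromosome 6 from 37000001, lies at Akr1d1, a bile acid enzyme gene, Creb3l2 and Trim24, and its 24 members overlapped H3K27ac at 8 places in WT and 13 in Kap1 KO. The next, with 23 members, is that of C1s and Cd163, with WT H3K9me3 at 8. Adjoining windows of chromosome 13, from 21000001, held 22, 21 and 21 members, of which 7, 10 and 13 had a tRNA-type sequence. In the window of Myc on chromosome 15 (from 61000001) 16 members lay with no distal SETDB1-listed peak, 9 of them with H3K27ac in WT and 6 in Kap1 KO. The window of the Klrb1 genes on chromosome 6 held 21 members with a median KAP1 score of 303. KAP1 peaks of all classes numbered 35, 39, 35, 27, 42, 17 and 27 in these windows, in the order given. Members were 6545 of the 13143 autosomal KAP1 peaks, and clustering beyond that of all KAP1 peaks was not tested.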

How the data were processed

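ChIP-seq peaks of 1 library per condition were used as the authors deposited them, each with a score in BED format. Per the methods, the authors aligned reads to mm9 (Bowtie 2, sensitive-local), used MACS for peak calling with total input as control, and set 80 as the lowest score. The Hepa 1.6 lists start at 80, but the deposited MEF lists start at 50, below that cutoff. The submitters' processing notes list CASAVA 1.82, Bowtie2 2.2.1, HISAT2, MACS 1.4 and bedtools. The handling of reads that map to several places is not given in the sources used here, and it bears on repeated sequence. Read depth is unknown, so the precision given by depth cannot be stated. Embryonic stem cell, liver, input and RNA-seq samples were not analysed here.

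Overlap meant at least 1 bp. Places and genes came from mm9 GENCODE, by the middle of each peak. A gene counted as near a member within 10 kb of its body. Motifs were searched on both strands of the middle 300 bases and in all autosomal windows of that length. tRNA-type sequences were an A box and a B box 30 to 75 bases apart. A shared word was a stretch of 30 bases, with at least 8 distinct triplets, found in 10 or more KAP1 peaks, and a word was listed with 20 or more members, at least 70% of them in no word before it. Members described singly were the 10 of highest KAP1 score and the 5 highest of each class of MEF marks, genes were the 10 with the most members, and up to 5 genes were named per list. Some of these members, genes and sequences are not reported here. The members and lists were chosen with earlier results of these data known, and the words, the tRNA-type sequences and the Zfp and Olfr groups after seeing the data. Some of the steps were tested on simulated data, and overlap counts were checked with bedtools 2.31.1. Software was scipy 1.17.1, statsmodels 0.14.6, numpy 2.4.6, pandas 2.3.3 and matplotlib 3.10.9 under Python 3.11.15.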

Additional observations from a re-analysis of the deposited data

How the results depend on the processing

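Of 93 values recomputed, 52 stayed within the 95% interval of the reported value or, for the 9 gene list counts, within 1.5 times of it, and 41 moved further. Shares and counts cannot change sign, and the recomputed differences kept theirs. Differences within strata of KAP1 score and of shared words were not among the 93, and there the H3K9me3 difference took both signs. With an overlap of 50% of the shorter interval, WT H3K27ac, Kap1 KO H3K27ac and WT H3K9me3 covered 18.01%, 22.9% and 14.8% of members. With MEF peaks within 1 kb they covered 23.2%, 28.3% and 21.0%, Kap1 KO H3K9me3 0.565% and WT only H3K27ac 2.43%, and the H3K9me3 difference from distal SETDB1-listed peaks was −7.28 points. With MEF scores of at least 80, Kap1 KO H3K27ac covered 23.5%, WT H3K9me3 12.3% and Kap1 KO H3K9me3 0.168%, and the interval of the H3K9me3 difference spanned 0 (−1.24 points, 95% CI −2.88 to 0.318). At KAP1 scores above the median, WT H3K27ac covered 18.6%, WT H3K9me3 22.0% and Kap1 KO only H3K27ac 8.58%, and the WT H3K27ac difference was 10.3 points. More than 5 kb from starts, WT H3K27ac covered 17.1%, Kap1 KO H3K27ac 22.5%, and 28.5% were intragenic. Without a shared word, an alternative chosen after seeing the data, WT H3K27ac covered 27.7%, WT H3K9me3 13.3%, Kap1 KO only H3K27ac 7.95% and WT only 2.68%. Another, without chromosomes 4 and 10, kept the Kap1 KO only and WT only shares within their intervals. The last added alternative, KAP1 scores below 3100, did so for WT H3K27ac, Kap1 KO H3K27ac and WT H3K9me3. In 500 bases the motif shares were 28.7% for AP-1, 12.8% for FOXA, 20.3% for C/EBP, 0.672% for HNF4A, 8.01% for the E-box, 3.07% for ETS, 12.99% for SP1, 6.72% for YY1, 26.9% for ZFP57, 1.79% for the linker and 1.24% for CTCF. Inside gene bodies, members were found at 2 AP-1 and immediate early, 6 fibroblast, 7 hepatocyte, 7 lipid and 4 p53 and cell cycle genes and, counting any overlap and 1 gene per symbol, at 1511 of 21281 protein-coding genes, against 3023 within 10 kb. Apart from these settings' own construction, the cause was not tested. No paired analysis was possible because each condition had 1 library. The marks come from other cells than KAP1, and peaks below the authors' thresholds were not seen.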
